A study of Homo sapiens with 21 samples.

Results

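The genes described here are 10 classical surface proteins of the kidney proximal tubule, taken by name from a table of 23368 gene features: the brush border enzymes *MME*, *ANPEP*, *DPP4*, *GGT1* and *ALPL*, the apical scaffold *PDZK1*, the endocytic receptors *LRP2*, *CUBN* and *AMN*, and the water channel *AQP1*. The rule names the genes and uses no measured value, but they were proposed with earlier results of these data known. They were followed in HK-2, an immortalised line of human proximal tubule epithelium grown in serum-free medium with epidermal growth factor and bovine pituitary extract. Polyadenylated RNA was sequenced from 4 libraries of cells held for 48 h in 5 µg/mL cyclosporine A and from 4 libraries of cells held for 48 h in vehicle, which was 0.1% ethanol. Cyclosporine A is an immunosuppressant that inhibits the phosphatase calcineurin and can injure the kidney, and the series set out to map microRNAs and mRNAs that take part in that injury. Nothing in the labels states that the libraries of a group are separate cultures, and the p-values therefore rest on a spread between libraries that may be technical. HK-2 is 1 line, and nothing here speaks for tubule cells of other origin.

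The brush border is a dense carpet of microvilli on the side of the proximal tubule cell that faces the urine. Its membrane carries peptidases and other hydrolases that cut filtered peptides, glutathione and phosphate esters before their products are taken up. At the base of the microvilli, the receptors megalin (*LRP2*) and cubilin (*CUBN*) bind filtered proteins, and amnionless (*AMN*) escorts cubilin to the surface and anchors it there. Loss of these proteins is a familiar feature of injured or dedifferentiated tubule cells.

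Of the 10 genes, 5 were measured well enough to be tested: *MME*, *DPP4*, *GGT1*, *PDZK1* and *AMN*. *MME* rose 3.32-fold with cyclosporine A and *PDZK1* fell to 0.249 of its vehicle level. *GGT1* fell to 0.651 of its vehicle level, *AMN* rose 1.29-fold, and *DPP4* did not pass the test. The other 5 genes, *ANPEP*, *ALPL*, *LRP2*, *CUBN* and *AQP1*, had at most 6 counts in any library. The tested members had no common direction, with 2 higher, 2 lower and 1 not passed. In the edgeR quasi-likelihood test over the whole table, 66.9% of 12855 genes passed an adjusted p of 0.05, made up of 33.3% of genes that were higher and 33.5% that were lower with cyclosporine A. Against that background 4 calls among 5 tested members are not a result about the members. The median log2 fold change of the 5 tested members was -0.02, beside -0.0022 over all genes tested. When the 12855 genes were ordered by log2 fold change, *MME* was number 98 from the top and *PDZK1* number 168 from the bottom.

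The libraries held 3965431 to 5001669 counts with cyclosporine A and 4289120 to 7041604 counts with vehicle. All 9 epithelial markers listed, among them *CLDN1*, *KRT19* and *CDH2*, averaged at least 1 CPM (counts per 1000000 counts of a library, with library sizes corrected by the TMM method), and their sum was 1505 to 1640.3 CPM with cyclosporine A and 1717 to 1747 CPM with vehicle. Of 37 genes listed as proximal tubule markers or regulators, 17 averaged at least 1 CPM, and 9, among them *HNF4A*, *SLC22A6*, *SLC22A8*, *SLC6A19* and *FABP1*, had no count in any library, so the proximal tubule label was borne out by part of its markers. The 37 genes summed to 1413 to 1510.2 CPM with cyclosporine A and to 1835 to 1976 CPM with vehicle. Markers of other cell types also moved with the treatment. At most 4 genes of each of these lists were tested, and 66.9% of all genes tested were called, 33.3% higher and 33.5% lower. Calls on so few genes are not a result about those cell types. The summed level of 15 distal and collecting tubule markers was 627 to 664 CPM with cyclosporine A and 1113 to 1253 CPM with vehicle, nearly all of it *SCNN1A*; 4 of the 15 averaged at least 1 CPM, *UMOD*, *AQP2*, *SCNN1B*, *FXYD4* and *PVALB* were at 0, and all 3 tested genes fell. For 12 stromal and podocyte markers it was 201 to 223 CPM with cyclosporine A and 518 to 559 CPM with vehicle; 5 of the 12 averaged at least 1 CPM, 4, among them *PDGFRA*, *COL1A2* and *WT1*, were at 0, and all 4 tested genes fell. For 10 immune markers it was 321 to 345 CPM with cyclosporine A and 449 to 510.2 CPM with vehicle, with 4 of the 10 at 1 CPM or more, 5 at 0, among them *PTPRC*, *CD3E*, *MS4A1* and *LYZ*, and 2 of 4 tested genes higher and 2 lower. For 10 endothelial markers it was 24.7 to 29.2 CPM with cyclosporine A and 4.11 to 5.42 CPM with vehicle, mostly *TIE1*, the 1 gene of the 10 that was tested or averaged at least 1 CPM; it rose, and *PECAM1*, *KDR* and *EMCN* were at 0. The part of these markers in the members' changes was not tested. In bulk RNA, fewer cells that express a gene and less of its RNA per cell cannot be told apart.

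*MME* encodes neprilysin, a zinc peptidase of the brush border that degrades small peptides such as natriuretic peptides and bradykinin. It stood at 195, 209, 209.8 and 191 CPM in cyclosporine A replicates 1 to 4, against 66.1, 61.8, 53.1 and 60.1 CPM in vehicle replicates 1 to 4. The lowest cyclosporine A library was far above the highest vehicle library, and the 4 libraries of each group lay close together. The means were 201 ± 9.73 CPM with cyclosporine A and 60.3 ± 5.40 CPM with vehicle (SD, n = 4 each), a log2 fold change of 1.73 ± 0.07 (SE; edgeR adjusted p = 2.39e-30). The raw counts were 948, 856, 912 and 746 with cyclosporine A, and 466, 336, 251 and 266 with vehicle. *MME* was thus higher with the drug even before scaling. The total depth was 17577019 counts with cyclosporine A and 21341597 with vehicle, and the depths of single libraries overlapped between the groups.

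*GGT1* encodes gamma-glutamyltransferase, which splits extracellular glutathione so that its amino acids can be taken up. It stood at 110.0, 94.5, 91.1 and 101 CPM in cyclosporine A replicates 1 to 4, against 153, 156, 164 and 136 CPM in vehicle replicates 1 to 4. The groups did not overlap, and the highest cyclosporine A library and the lowest vehicle library were separated by less than the range within the vehicle group. *GGT1* averaged 99.1 ± 8.31 CPM with cyclosporine A and 152 ± 11.8 CPM with vehicle (SD, n = 4 each), a log2 fold change of -0.62 ± 0.07 (SE; edgeR adjusted p = 6.05e-12). *GGT1* has near copies whose reads could be mistaken for its own. Of these, *GGT3P*, *GGT8P*, *GGTLC1* and *GGTLC2* each had at most 4 counts in the summed libraries of either group. Reads of a copy that were counted under *GGT1* would not appear there, so these counts cannot show how many there were. In the RefSeq annotation of GRCh38 it overlaps *LRRC75B*, listed in the table under its older name *FAM211B*, which had 244 counts summed over the cyclosporine A libraries and 560 over the vehicle libraries. *FAM211B* changed by -0.87 ± 0.12 on the log2 scale (SE, edgeR adjusted p = 8.11e-09). No source used here states whether counting was by strand, and reads in the overlap could belong to either gene.

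*DPP4* encodes dipeptidyl peptidase 4, a serine protease that trims incretins and other peptides. It stood at 91.5, 98.9, 99.8 and 93.6 CPM in cyclosporine A replicates 1 to 4, against 109.8, 94.2, 91.3 and 91.2 CPM in vehicle replicates 1 to 4. The ranges overlapped, and vehicle replicate 1 was the highest of all 8 libraries. The means were 96.0 ± 4.05 CPM with cyclosporine A and 96.6 ± 8.90 CPM with vehicle (SD, n = 4 each). The log2 fold change was -0.02 ± 0.07 (SE; edgeR adjusted p = 0.818), with a 95% interval of -0.15 to 0.12.

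Of the remaining enzymes, *ANPEP* encodes aminopeptidase N and *ALPL* the tissue-nonspecific alkaline phosphatase, and both sat near the floor of detection. *ANPEP* had 4, 2, 6 and 3 counts in cyclosporine A replicates 1 to 4, against 5, 3, 4 and 1 counts in vehicle replicates 1 to 4. Every library held at least 1 count, and the ranges overlapped. *ALPL* had 0, 2, 1 and 0 counts with cyclosporine A and 2, 6, 0 and 1 counts with vehicle, with 2 of the 3 vehicle libraries that held it at 1 or 2 counts. Scaled by total depth, the ratio of cyclosporine A to vehicle was 1.40 for *ANPEP* (95% exact binomial interval 0.622 to 3.20) and 0.405 for *ALPL* (0.0705 to 1.62). These intervals cover counting error only, and both include equal levels.

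*PDZK1* encodes a scaffold with PDZ domains that holds transporters such as the sodium-phosphate cotransporter in the microvillus membrane. It stood at 13.6, 12.2, 15.4 and 15.1 CPM in cyclosporine A replicates 1 to 4, against 58.7, 56.3, 51.0 and 60.1 CPM in vehicle replicates 1 to 4. The 2 ranges were far apart, and the spread within each was small. The means were 14.1 ± 1.48 CPM with cyclosporine A and 56.5 ± 3.99 CPM with vehicle (SD, n = 4 each), a log2 fold change of -2.01 ± 0.10 (SE; edgeR adjusted p = 4.57e-25). Raw counts of *PDZK1* were 66, 50, 67 and 59 with cyclosporine A and 414, 306, 241 and 266 with vehicle. Its near copy *PDZK1P1* had 3 counts summed over the cyclosporine A libraries and 1 over the vehicle libraries, which leaves out any of its reads counted under *PDZK1*.

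Among the endocytic receptors, only *AMN* was measured well enough to test. It stood at 17.1, 17.1, 18.6 and 22.2 CPM in cyclosporine A replicates 1 to 4, against 16.9, 13.3, 13.8 and 13.3 CPM in vehicle replicates 1 to 4. The groups did not overlap but nearly touched, at 17.1 CPM for the lowest cyclosporine A library and 16.9 CPM for vehicle replicate 1. *AMN* averaged 18.8 ± 2.43 CPM with cyclosporine A and 14.3 ± 1.73 CPM with vehicle (SD, n = 4 each), a log2 fold change of 0.36 ± 0.13 (SE; edgeR adjusted p = 0.0102). Without cyclosporine A replicate 4 the log2 fold change was 0.28 with an edgeR adjusted p of 0.0635, so this call rests on 1 library.

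Megalin and cubilin transcripts were almost not detected. *LRP2*, which encodes megalin, had no count in any cyclosporine A library and 1 count in vehicle replicate 1. A count of 0 among the 17577019 pooled cyclosporine A counts allows a level of up to 0.171 CPM. *CUBN*, which encodes cubilin, had 0, 1, 0 and 0 counts in cyclosporine A replicates 1 to 4, against 2, 4, 6 and 4 counts in vehicle replicates 1 to 4. Each vehicle library held *CUBN* and only 1 cyclosporine A library did. The ratio of cyclosporine A to vehicle was 0.0759 after scaling by depth, with a 95% exact binomial interval of 0.00181 to 0.488 that covers counting error only. *CUBN* fell below the filter on low counts and so had no test here; without the filter, edgeR gave an adjusted p of 0.00327, and the authors' deposited table lists an adjusted p of 0.0146.

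*AQP1* encodes the main water channel of the proximal tubule. It had 0, 1, 0 and 0 counts in cyclosporine A replicates 1 to 4, against 1, 2, 3 and 3 counts in vehicle replicates 1 to 4. Every vehicle library held it, but at these counts the groups overlapped. The ratio of cyclosporine A to vehicle was 0.135 (95% exact binomial interval 0.00308 to 0.974, counting error only). Without the filter, edgeR gave an adjusted p of 0.0656, and the authors' deposited table lists 0.118.

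**Figure D1:**
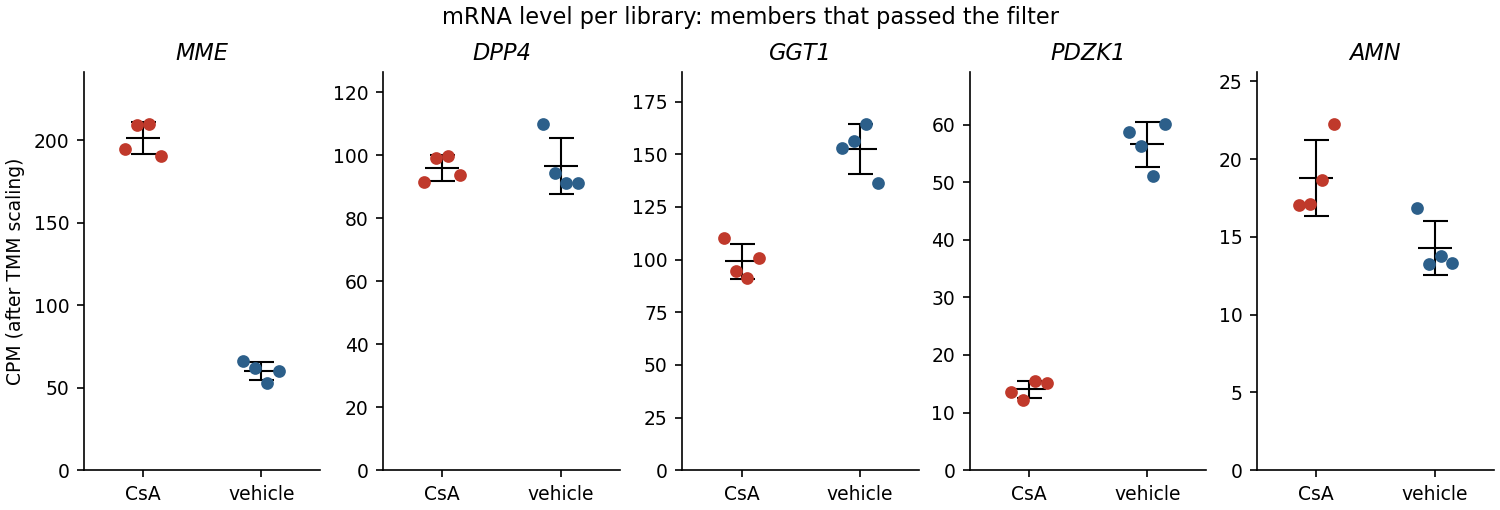
CPM after TMM scaling (y axis, from 0, a separate scale per gene) in each of 4 cyclosporine A (CsA) and 4 vehicle libraries, with the mean and SD as bars. *MME* is higher with cyclosporine A, *GGT1* and *PDZK1* are lower, *DPP4* overlaps, and *AMN* nearly touches at 17.1 and 16.9 CPM.

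**Figure D2:**
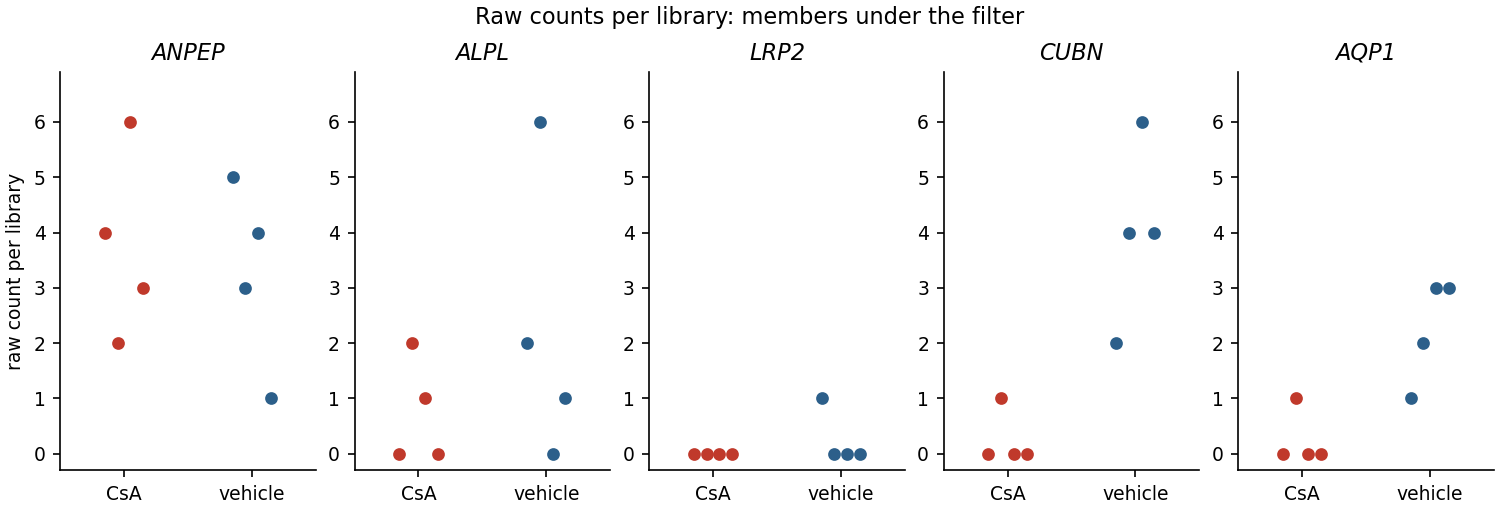
Raw counts (y axis) of the 5 members under the filter on low counts, 1 point per library, for 4 cyclosporine A (CsA) and 4 vehicle libraries. No library exceeds 6 counts, and *CUBN* has 0 or 1 count with cyclosporine A and 2 to 6 with vehicle.

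Counts are not corrected for transcript length, so the level of 1 member cannot be set against that of another. Within a library, however, the ratio of 2 members' counts does not depend on how libraries are scaled, and its change with treatment can be read. The *MME* count over the *PDZK1* count was 14.4, 17.1, 13.6 and 12.6 in cyclosporine A replicates 1 to 4, against 1.13, 1.10, 1.04 and 1.00 in vehicle replicates 1 to 4. Every cyclosporine A library was far above every vehicle library. Of the tested members *MME* rose most and *PDZK1* fell most, so this separation was already given by their changes above. The *MME* count over the *DPP4* count was 2.13, 2.11, 2.10 and 2.04 with cyclosporine A, against 0.602, 0.656, 0.582 and 0.658 with vehicle. The *GGT1* count over the *DPP4* count was 1.20, 0.956, 0.912 and 1.08 with cyclosporine A, against 1.39, 1.66, 1.80 and 1.49 with vehicle. *PDZK1* and *GGT1* both fell, but unequally: the *PDZK1* count over the *GGT1* count was 0.123, 0.129, 0.169 and 0.150 with cyclosporine A, against 0.384, 0.361, 0.311 and 0.441 with vehicle.

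Of the 5 tested members, 4 had groups that did not overlap in CPM, where 57.9% of all tested genes did not overlap. The spread between libraries was set beside the counting error as a coefficient of variation. For *PDZK1* it was 10.5% with cyclosporine A, beside 12.9% from counting alone, and 7.05% with vehicle, beside 5.80%. For *AMN* it was 13.0% beside 11.2% with cyclosporine A and 12.1% beside 11.6% with vehicle. The 3 more highly counted members had more spread than counting gives in all groups but 1. For *GGT1* it was 8.39% beside 4.87% with cyclosporine A and 7.76% beside 3.54% with vehicle. For *MME* it was 4.84% beside 3.41% with cyclosporine A and 8.96% beside 5.63% with vehicle. For *DPP4* it was 4.22% beside 4.93% with cyclosporine A and 9.21% beside 4.45% with vehicle.

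The pattern of each tested member over the 8 libraries was compared with that of 10081 other genes with a mean of at least 50 counts, by Pearson's r of log2 CPM, as a description. The genes most like *MME* were *DLC1* (0.999), *PAPPA2* (0.999) and *KLF7* (0.999). For *PDZK1* they were *CYS1* (0.998), *CRLS1* (0.997) and *KIF14* (0.997), and for *GGT1* they were *ITM2C* (0.997), *SDF4* (0.996) and *POMT1* (0.996). The 8 libraries share 2 treatments, so for these genes the correlation is set mainly by the difference between treatments. The genes most like *AMN* were *MOB1B* (0.971), *CGN* (0.960) and *EEA1* (0.956). For *DPP4*, which did not pass the test, they were *MAPKBP1* (0.943), *PIP4K2B* (0.932) and *CNNM4* (0.917).

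**Figure D3:**
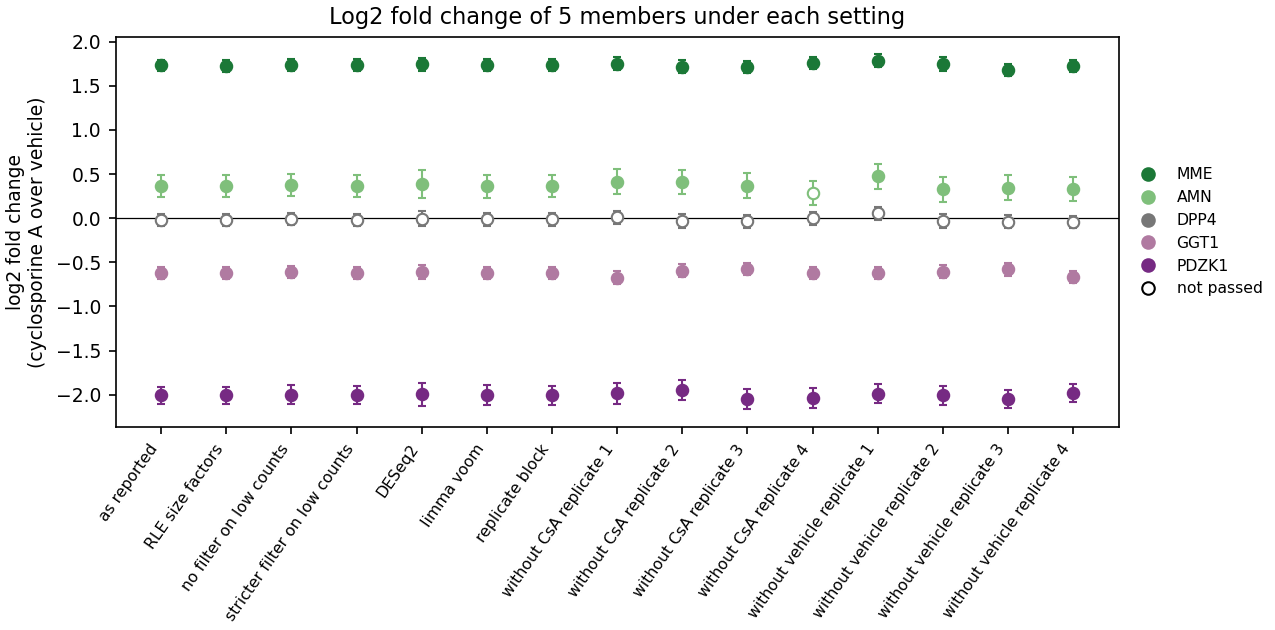
Log2 fold change, cyclosporine A over vehicle, with its SE (y axis) for the 5 tested members under the reported fit and 14 alternatives (x axis). Filled points passed an adjusted p of 0.05: *MME*, *GGT1* and *PDZK1* passed under every alternative shown, *AMN* failed without cyclosporine A replicate 4, and *DPP4* passed under none.

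Other genes of the brush border, its microvilli and its endocytic machinery were examined as lists, which were compiled with earlier results of these data known; their counts stand beside 66.9% of all genes called, 33.3% higher and 33.5% lower. Of 24 genes listed as other brush border enzymes, 6 were tested, of which 2 rose, 3 fell and 1 did not pass, with 83.3% called and a median log2 fold change of -0.52. The number lower was 5 without cyclosporine A replicate 2 or without vehicle replicate 4, and 6 without the filter on low counts. *NT5E*, the ectonucleotidase that makes adenosine, rose by 0.98 ± 0.07 on the log2 scale (SE, edgeR adjusted p = 3.12e-18). The carbonic anhydrase *CA12* rose by 0.22 ± 0.06. Its place in the brush border was not checked, and the counts and median of the list include it. *VNN1*, a pantetheinase, changed by -2.21 ± 0.14 and *ENPEP*, glutamyl aminopeptidase, by -0.68 ± 0.06. *ENPEP*, a relative of *ANPEP*, averaged 373 ± 28.2 CPM with cyclosporine A and 597 ± 45.1 CPM with vehicle (SD, n = 4 each). *ACE*, angiotensin-converting enzyme, did not pass (-0.45 ± 0.23, edgeR adjusted p = 0.0817).

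Of 30 genes of the microvillus core and apical scaffold, 20 were tested, of which 11 rose, 6 fell and 3 did not pass, with a median of 0.17; 85% were called, beside 66.9% of all genes tested. *EPS8*, an actin-capping protein of microvillus tips, rose by 1.40 ± 0.07 and *MYO1D*, a membrane-tethering myosin, by 1.01 ± 0.07. *PROM2*, a prominin of membrane protrusions, changed by -1.08 ± 0.10 and *EPS8L2*, a relative of *EPS8*, by -0.48 ± 0.06. *EZR*, which encodes ezrin, the linker between the brush border membrane and actin, did not pass (-0.08 ± 0.06, edgeR adjusted p = 0.248). *SLC9A3R1*, the related scaffold NHERF1, changed by -0.59 ± 0.11, *SLC9A3R2*, the related NHERF2, by 0.27 ± 0.10, and *SCARB1*, a lipoprotein receptor that PDZK1 binds in mouse liver, by 0.20 ± 0.06. *SLC9A3*, the apical sodium-proton exchanger, changed by -1.63 ± 0.20.

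All 32 genes listed for receptor-mediated endocytosis were tested, of which 16 rose, 8 fell and 8 did not pass, with a median of 0.18; 75% were called, beside 66.9% of all genes tested. *RAB7A* (0.78 ± 0.06) and *RAB5A* (0.94 ± 0.08), small GTPases of late and early endosomes, rose. Of the relatives of *RAB5A*, *RAB5B* changed by -0.45 ± 0.07 and *RAB5C* by 0.27 ± 0.07. *FCGRT*, the neonatal Fc receptor that recycles albumin, changed by -0.72 ± 0.08 and *LRPAP1*, the chaperone of megalin, by -0.47 ± 0.06. *DAB2*, an adaptor for the tail of megalin, rose to 33.6 CPM on average with cyclosporine A, against 16.6 CPM with vehicle (0.99 ± 0.11, edgeR adjusted p = 3.30e-11).

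In the gene families of the members, 27 of 50 listed genes were tested, of which 10 rose, 8 fell and 9 did not pass, with a median of -0.0057; the 66.7% called is the background share of 66.9%. *LRP1*, the large receptor most like megalin in build, rose to 834 ± 20.6 CPM with cyclosporine A, against 577 ± 45.5 CPM with vehicle (0.53 ± 0.06), and *LRP12* rose by 0.59 ± 0.07. *MMEL1*, the closest relative of *MME*, rose by 0.72 ± 0.18 from a low level, 9.31 CPM with cyclosporine A and 5.62 CPM with vehicle. Among the aminopeptidases, *NPEPPS* (-0.52 ± 0.06) and *ERAP2* (-0.38 ± 0.06) fell, whereas *LNPEP* (0.46 ± 0.12) rose. *DPP8* (0.53 ± 0.10) and *DPP9* (0.28 ± 0.06), cytosolic relatives of *DPP4*, rose while *DPP4* did not pass. Of the aquaporins listed, only *AQP11* was tested, and it did not pass (0.10 ± 0.32, edgeR adjusted p = 0.801).

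Of the 37 genes listed as proximal tubule markers or regulators, 17 were tested, of which 12 fell, 2 rose and 3 did not pass, where 33.5% of all genes tested were lower and 33.3% higher. Their median was -1.05, beside -0.0022 over all genes tested. *CDH6* (-2.98 ± 0.07) and *CDH16* (-3.91 ± 0.15), cadherins of the tubule, were lower, and *MIOX* (0.68 ± 0.06), the enzyme that oxidises inositol in tubule cells, and *PAX8* (0.19 ± 0.06), a nephron transcription factor, were higher. Of 8 tested epithelial markers, 3 rose, 4 fell and 1 did not pass, with *KRT18* (0.71 ± 0.07) and *KRT8* (0.42 ± 0.07) higher and *CLDN1* (-0.59 ± 0.06) and *CDH1* (-2.46 ± 0.25) lower.

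**Figure D4:**
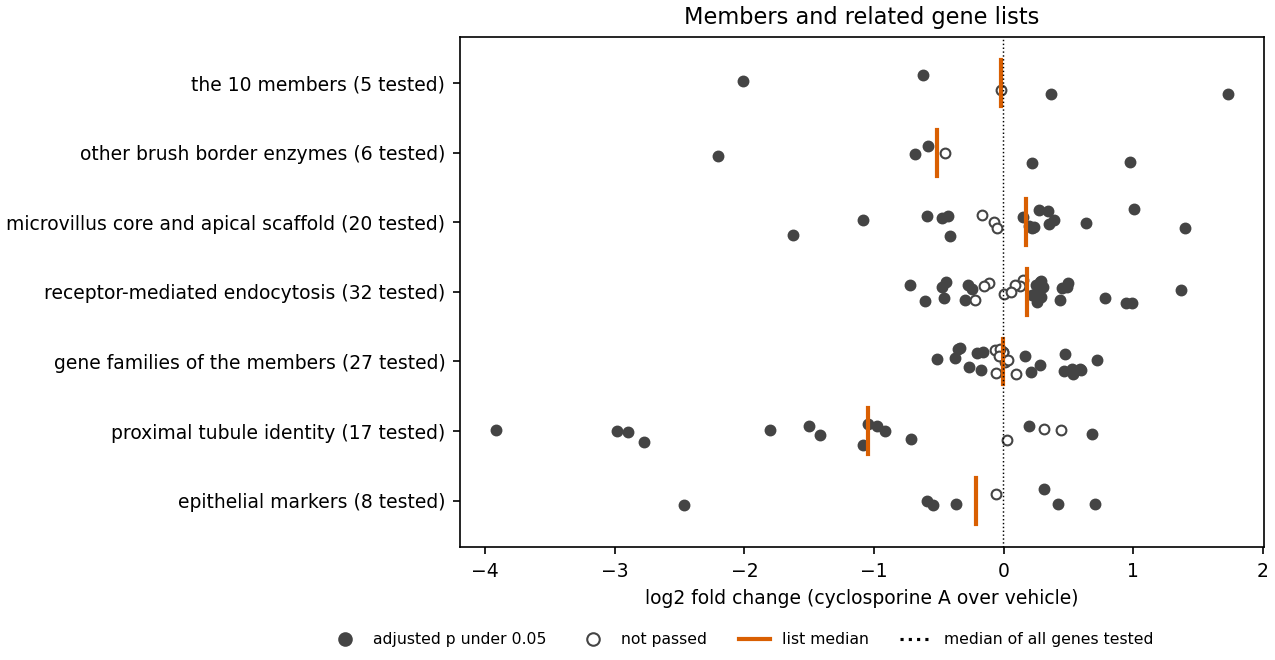
Log2 fold change, cyclosporine A over vehicle (x axis), of every tested gene in the 10 members and 6 other lists (rows), with list medians as bars and the median of all genes tested as a dotted line. The members spread from -2.01 (*PDZK1*) to 1.73 (*MME*), and the proximal tubule list has its median at -1.05.

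A further readout came from PAR-CLIP, in which RNA labelled with 4-thiouridine is crosslinked to Argonaute, the protein that carries microRNAs, and the bound fragments are sequenced. The label was 100 µM 4-thiouridine for all 3 deposited lists. For AGO2 they hold 36812 clusters after 24 h of 5 µg/mL cyclosporine A and 56985 after 24 h of vehicle, 0.1% ethanol. A further 19306 clusters are for an antibody to all Argonaute proteins, and the labels give no treatment for those cells. Across the 3 lists, 32 clusters were annotated to 8 of the 10 genes, and *GGT1* and *PDZK1* had none. In the all-Argonaute list the sequence is as long as its interval in only 2692 of 19306 clusters, and in 1 of its 5 member clusters, so those 5 positions are less certain and no sequence of that list is shown. None of the 32 lay in a 3' UTR, the usual place of microRNA sites, where 1.44%, 1.31% and 1.02% of all clusters of the 3 lists lay, so 32 clusters are too few to show a difference from that rate. Introns held 28 of the clusters, exons 3 and a transcript end 1. On the strand of the gene lay 16 of the 32, and of all intronic clusters with a known gene strand 55.16%, 54.15% and 54.27% in the 3 lists did.

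*CUBN* held 14 of the 32 clusters, 6 in the cyclosporine A list and 8 in the vehicle list, and *LRP2* held 5. These numbers are not corrected for gene length, so they do not show that sites gather on *CUBN* or *LRP2*. Both genes were almost without mRNA counts. Summed over the cyclosporine A and the vehicle libraries, *CUBN* had 1 and 16 counts and *LRP2* had 0 and 1. Whether the clusters come from transcripts of these genes was not tested. *MME* had 1 cluster with cyclosporine A and 2 with vehicle, all in introns and all on the strand opposite to the gene. At 4 positions, 3 in introns of *CUBN* and 1 in an intron of *LRP2*, the 2 AGO2 lists overlapped on the same strand. They are shown because they are the member sites found under both treatments, with the bases shared by both lists in capitals, 5′ to 3′ on the strand of the cluster, in hg19. The second *CUBN* site lies on the strand opposite to the gene and the other 3 on the strand of the gene.

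*CUBN* chr10:16976746-16976767, minus strand, cyclosporine A: TTGGATGTCTCGGTTTAaaagt
*CUBN* chr10:16976751-16976767, minus strand, vehicle: TTGGATGTCTCGGTTTA
*CUBN* chr10:17132777-17132796, plus strand, cyclosporine A and vehicle: TGGGAACCAGGATTTTTACT
*CUBN* chr10:17161305-17161323, minus strand, cyclosporine A: ATGGATGGTGTGTGTTGTA
*CUBN* chr10:17161303-17161323, minus strand, vehicle: ATGGATGGTGTGTGTTGTAca
*LRP2* chr2:170013067-170013085, minus strand, cyclosporine A: GTGAAACAGTATCTGAAAc
*LRP2* chr2:170013068-170013085, minus strand, vehicle: GTGAAACAGTATCTGAAA

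The authors' score, whose unit is not given, ranks clusters within a list. The plus-strand *CUBN* site had a score of 224 in the cyclosporine A list, where the median was 78.0, and 52 in the vehicle list, where the median was 44.0. The *LRP2* site scored 39 in the cyclosporine A list and 24 in the vehicle list, below the median of its list each time. The highest score of a member was 641, for a cluster in a *CUBN* exon on the strand opposite to the gene in the cyclosporine A list, number 3149 of 36812 by score. The lists pool the 2 libraries of a treatment, so scores were not compared between treatments.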

How the data were processed

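For 8 mRNA libraries the deposited table holds whole-number counts by gene symbol. The submitters' processing notes name hg19 and the tools HTSeq, TopHat, Bowtie, cutadapt, DESeq2 and CASAVA 1.8.2, with no roles or settings. The authors' own comparison was deposited as log2 fold changes with p-values, from which only adjusted p-values are quoted. Their PAR-CLIP lists give each cluster a score, an annotation, a sequence and a position, per the file headers; positions are written 1-based. Of the 10 members, all were found in the table, and groups were taken from the sample titles.

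The whole table was fitted in R 4.3.3 with the quasi-likelihood test of edgeR 4.0.16 (TMM scaling, filterByExpr, group as the only term), with Benjamini-Hochberg adjustment over 12855 genes; an adjusted p under 0.05 is a call. The SE is implied by the F statistic, and the 95% interval of a log2 fold change uses the normal quantile. The fits were tested on simulated data. Alternatives were other size factors, no filter, a filter of 10 counts in 4 libraries, DESeq2 1.42.0, limma 3.58.1 voom, a replicate block, and leaving out each library. Replicate numbers did not pair the libraries: same-numbered libraries had correlations of -0.144 to 0.0825 of their deviations from the group means. No 2 libraries of a group agreed within sampling noise (the lowest chi-square per degree of freedom was 1.27). The members and lists were chosen with earlier results of these data known. All 10 members are named, with up to 2 called genes per direction and list by adjusted p, and the 3 genes most like each member with a mean of at least 50 counts; other list genes were picked as examples with their values known. Some overlapping-gene names come from the RefSeq table of GRCh38.p14, used for names and neighbours only. Intervals and floors cover counting error only, and a floor is 3 counts. The miRNA tables were not used here. Some genes of the lists are counted but not reported here by name.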

Additional observations from a re-analysis of the deposited data

Results flagged for a closer look

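In 19 groups of 4 libraries with any spread, 5 had 1 library far from the other 3. Chance gives about 1 in 20 for measured levels, a rate that does not apply to 3 of the 5, where the other 3 libraries had no count and any count stands apart. Vehicle replicate 1, the deepest library, was the highest of its group for *DPP4* (109.8 CPM) and for *AMN* (16.9 CPM). Those 3 rest on single counts: *LRP2* in vehicle replicate 1 (0.142 CPM), and *CUBN* and *AQP1* in cyclosporine A replicate 2 (0.244 CPM each).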

How the results depend on the processing

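*MME*, *GGT1* and *PDZK1* kept their direction and their call under all 14 alternatives. Leaving out 1 library at a time gave log2 fold changes of 1.68 to 1.78 for *MME*, -0.67 to -0.58 for *GGT1*, -2.05 to -1.94 for *PDZK1*, 0.28 to 0.47 for *AMN* and -0.045 to 0.055 for *DPP4*. The call of *AMN* was lost without cyclosporine A replicate 4, so that the members called higher numbered 1 to 2, and the sign of *DPP4* turned, with no call, without vehicle replicate 1 or cyclosporine A replicate 1; the cause was not tested. With a replicate block, which the data do not support as a pairing, all genes called higher numbered 4243 and all genes called lower 4243, and the log2 fold changes were 1.73 for *MME*, 0.37 for *AMN*, -0.01 for *DPP4*, -0.62 for *GGT1* and -2.01 for *PDZK1*, with no member's call changed. Without the filter or with DESeq2, the members called lower numbered 3, since *CUBN* was then tested. Genes listed as other brush border enzymes and called lower numbered 6 without the filter, since more genes were tested, and 3 to 5 with 1 library left out. Among the genes most like *DPP4*, none of which passed, signs turned: *MAPKBP1* was 0.011 in DESeq2 and -0.053 to 0.11 with 1 library left out, *PIP4K2B* -0.020 to 0.076 and *CNNM4* -0.13 to 0.048. Depth limits the 5 lowest members, since 3 counts in a library were worth 0.600 to 0.757 CPM with cyclosporine A and 0.426 to 0.699 CPM with vehicle.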
